A study of Mus musculus with 7 samples.

Results

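Oligodendrocyte precursor cell (OPC) nuclei of the mouse hippocampus are described here: 1218 of 45138 filtered nuclei (2.70%), from 24 mice. A nucleus was counted as an OPC when it carried at least 1 transcript of *Pdgfra* or *Cspg4*, when *Pdgfra*, *Cspg4*, *Vcan*, *Tnr* and *Lhfpl3* together made up at least 0.8% of its transcripts with at least 3 of these 5 genes detected, and when it carried at most 1 transcript of *Gad1* and *Gad2*. The members were therefore chosen by measured values, and the levels of these genes are given as a description only. The study asked how PMX205, an antagonist of the complement receptor C5aR1, alters cells of the hippocampus in a mouse model of amyloid disease. It used split-pool barcoding of single nuclei and of CD11b-selected microglia, beside tissue staining, quantitative PCR, a plasma marker and a memory test. Only the single nuclei are used here. Arctic48 (Arc) mice are hemizygous for a human *APP* transgene with the Indiana, Swedish and Arctic mutations on a C57BL6/J background, and WT mice come from crosses with C57BL6/J mice and lack it. Vehicle mice drank water (WT-veh and Arc-veh), and treated mice drank water with PMX205 at 20 µg/ml for 12 weeks (WT-PMX and Arc-PMX). All mice were single-housed and were perfused at 10 months of age. Each group held 6 mice, 3 females (F1 to F3) and 3 males (M1 to M3), and each mouse filled 1 barcoding well, which is the replicate throughout. WT and Arc nuclei were barcoded in different columns of the plate, so that plate column and genotype cannot be told apart.

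OPCs are the dividing precursors that persist in the adult brain and give rise to myelinating oligodendrocytes. They carry the platelet-derived growth factor receptor encoded by *Pdgfra* and the proteoglycan encoded by *Cspg4*, receive synaptic input from neurons, and can divide, differentiate or take part in responses to injury. *C4b* encodes complement component 4, which lies in the classical pathway upstream of the C5a fragment that C5aR1 binds.

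The 24 wells held 1187 to 3356 filtered nuclei and 27 to 77 OPC nuclei each. The OPC nuclei of a well summed to between 39881 and 325644 transcripts (median 140369), and an OPC nucleus had a median of 2459.5 transcripts and 1328 genes, against 4485 transcripts for all filtered nuclei. The median depth of OPC nuclei per well was 1016 to 3186 transcripts for WT-veh, with a median of 1731, 1294 to 4889 for WT-PMX (2277), 1358 to 4552 for Arc-veh (3643) and 1317 to 5802 for Arc-PMX (3001). The groups overlapped in depth, with the lowest median in WT-veh. The WT-veh wells F3 and M3 stood apart: they held 13 and 29 oligodendrocyte nuclei, and their OPC nuclei had medians of only 1016 and 1144 transcripts, so the counts of called genes and the shares against WT-veh are also given without them. Barcode sequences recurred between the 7 sublibraries by name, with 40769 distinct names among the 45138 nuclei, but the 1218 OPC nuclei held 1217 distinct names, with 1 name in 2 sublibraries. One sample of the WT group was left out by the study because its expression was that of Arc mice. The sources used here do not say which it was, or whether it was a sample of nuclei. All 24 wells were therefore kept, and whether it is among them was not tested. The *C4b* levels of the WT and Arc wells, given below, did not overlap.

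The selected nuclei carried OPC genes that the selection did not use. *Sox10*, the transcription factor of the oligodendrocyte lineage, was detected in 49.8% of OPC nuclei at 287 CPM (counts-per-million, the transcripts of a gene scaled to the total of the nuclei), against 10.6 CPM in all other nuclei, among them oligodendrocyte nuclei at 323 CPM, so that it marks the lineage and not OPCs alone. *Olig2*, a second lineage factor, stood at 60.0 CPM against 0.985 (19.4 in oligodendrocytes), and *Megf11* at 1089 CPM against 52.9 (6.59 in oligodendrocytes). *Ptprz1*, a receptor phosphatase of glia, stood at 2943 CPM in OPCs, close to its 2166 CPM in astrocyte nuclei. Of the genes that chose the nuclei, *Pdgfra* was detected in 83.5% of them at 838 CPM, *Cspg4* in 79.6% at 664 CPM, and *Lhfpl3* and *Tnr* in 99.9% each. Among genes with the largest ratio to other nuclei were *6030407O03Rik*, *Shc4*, *Matn4*, *Emid1*, *Cacng4* and *Sema3d*, with ratios of 91.9, 91.2, 88.7, 75.1, 71.5 and 62.7. These ratios describe nuclei that were selected on expression and were not tested.

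Some defining markers of other cell types were near 0 in OPC nuclei and others were not. The astrocyte channel genes *Aqp4* and *Gja1* stood at 7.36 and 2.55 CPM in OPC nuclei, against 475 and 361 CPM in astrocyte nuclei, and *Mog*, a myelin gene, at 17.3 CPM against 801 CPM in oligodendrocyte nuclei. The astrocyte glutamate transporters *Slc1a2* and *Slc1a3* were detected in 52.9 and 46.0% of OPC nuclei, at 465 and 317 CPM against 9667 and 3738 CPM in astrocytes. *Cldn5*, of endothelial cells, was at 0, and *Dcn*, of fibroblasts, at 0.849 CPM. The neuronal genes *Snap25* and *Rbfox3* stood at 165 and 52.1 CPM, against 608 and 929 CPM in all other nuclei. Of the 1218 OPC nuclei, 700 carried at least 3 neuronal markers, 350 at least 3 astrocyte markers, 85 at least 3 myelin genes and 28 at least 3 microglial markers. At the edge of the rule, the 20 nuclei with 0.8 to 1% of marker transcripts carried *Ptprz1* at 1502 CPM and *Snap25* at 275 CPM, and the 23 nuclei with 0.6 to 0.8%, which were left out, carried them at 842 and 417 CPM. The *Gad1* and *Gad2* limit removed 52 nuclei whose *Ptprz1* (3006 CPM) and *Sox10* (252 CPM) levels were near those of the members (2943 and 287 CPM).

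The share of OPC nuclei overlapped between all groups. OPCs made up 2.65 to 3.06% of filtered nuclei per well in the WT-veh group, with a median of 2.87%, 1.82 to 3.73% in WT-PMX (2.56), 2.27 to 3.42% in Arc-veh (2.62) and 2.10 to 3.43% in Arc-PMX (2.69). No difference in the mean passed the test. It was -0.138 percentage points between Arc-veh and WT-veh (two-sided exact permutation test over wells, p = 0.476), -0.0318 between Arc-PMX and Arc-veh (p = 0.898), -0.170 between Arc-PMX and WT-veh (p = 0.411) and -0.203 between WT-PMX and WT-veh (p = 0.535). The adjusted p over these 4 comparisons ran from 0.713 to 0.898, and the smallest p this design allows is 0.00216. Without WT-veh F3 and M3 the differences from WT-veh were -0.100, -0.132 and -0.165 points for Arc-veh, Arc-PMX and WT-PMX (adjusted p = 0.898 in each). A share among nuclei also moves with the number of other nuclei recovered, and recovery was not measured.

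Set against oligodendrocytes instead, the OPC share was lower in both Arc groups than in WT-veh. OPCs made up 27.1 to 75.0% of OPC and oligodendrocyte nuclei together in WT-veh, with the highest values in F3 and M3, and the mean was 20.4 percentage points lower in Arc-veh (exact permutation test, adjusted p = 0.00866) and 18.5 lower in Arc-PMX (adjusted p = 0.0216). WT-PMX wells ran from 12.9 to 46.5% (median 29.6), held the lowest well of all (M1) and overlapped both Arc-veh (16.3 to 24.8%) and Arc-PMX (19.0 to 32.6%). Their mean was 12.8 points below WT-veh (adjusted p = 0.289), and the treated genotypes were not tested against each other. Without WT-veh F3 and M3 the difference from WT-veh was -8.02 points for Arc-veh (adjusted p = 0.0190), -6.19 points for Arc-PMX (adjusted p = 0.0952) and -0.404 points for WT-PMX (adjusted p = 0.952). For the Arc groups the direction held without these wells while the size fell, and the number of oligodendrocyte nuclei recovered per well sets this share as much as the number of OPCs.

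**Figure D1:**
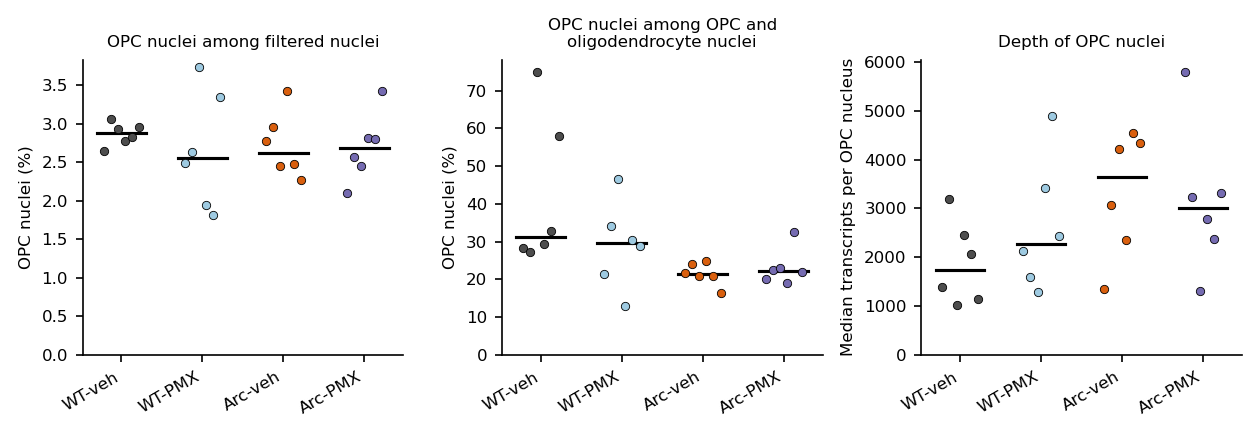
OPC nuclei as a percentage of filtered nuclei (left), OPC nuclei as a percentage of OPC and oligodendrocyte nuclei (middle) and median transcripts per OPC nucleus (right), by group. Points are wells (1 mouse each, 6 per group) and lines are medians; the groups overlap on the left, 2 WT-veh wells lie at 58.0 and 75.0% in the middle, and the lowest depth median is that of WT-veh.

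The Arc genotype came with a small set of higher genes in OPCs, led by *C4b*. Counts of the OPC nuclei were summed per well and tested with edgeR's quasi-likelihood test on 3144 genes, with sex as covariate and Benjamini-Hochberg adjustment, and CPM per well below are scaled by edgeR's TMM factors. Between Arc-veh and WT-veh, 25 genes rose (0.795% of genes tested) and 3 fell (0.0954%) at an adjusted p under 0.05, 28 in all (0.891%), and 38 genes (1.21%) had groups that did not overlap. At an unadjusted p under 0.05, 296 genes passed (9.41%). How often the fit finds a 2-fold change in genes with the spread seen between these wells was not tested. In sums of this kind a change in RNA per nucleus and a change in the share of OPCs that express a gene cannot be told apart.

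*C4b* (chr17:34728380-34743882, minus strand, mm10) ran from 0 to 16.03 CPM in WT-veh wells (median 3.43; 3 wells at 0), from 6.68 to 45.2 CPM in WT-PMX (18.9), from 146 to 511 CPM in Arc-veh (281) and from 152 to 410 CPM in Arc-PMX (323). Every Arc well lay above every WT well, so that no WT well kept here had the *C4b* level of an Arc well. *C4b* was higher in Arc-veh than WT-veh by 4.96 ± 0.43 on the log2 scale (± SE throughout; edgeR adjusted p = 8.8e-11). The 4 groups held 7, 15, 298 and 293 *C4b* transcripts in all. Its near-identical neighbour *C4a* was almost undetected in OPCs, at 0.283 CPM, and reads that fit both copies could have been split between them. *Serpina3n*, an acute-phase protease inhibitor often found with *C4b* in reactive glia, was too low to test, with 1 transcript in WT-veh, 1 in WT-PMX, 10 in Arc-veh and 11 in Arc-PMX. The antigen presentation gene *B2m* was also below the filter, with 4, 3, 13 and 11 transcripts.

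*Ermard*, *Ddx60* and *Stat3* rose as well. *Ermard*, named for a protein of the endoplasmic reticulum membrane associated with RNA degradation (chr17:15041208-15090044), ran from 21.1 to 63.6 CPM in WT-veh (median 31.7) and from 167 to 589 CPM in Arc-veh (346), a rise of 3.38 ± 0.33 (log2, edgeR adjusted p = 8.3e-10) with no overlap. It overlaps *Gm3448* and *Tcte3* on the other strand. *Ddx60*, an RNA helicase of antiviral responses, ran from 0 to 36.7 CPM in WT-veh (2.64) and from 30.2 to 84.0 CPM in Arc-veh (42.1), and rose by 2.62 ± 0.62 (edgeR adjusted p = 0.017). One WT-veh well, F1, reached the Arc range, and the *Ddx60* call was lost without any one of WT-veh F2, M1 or M2 or Arc-veh M1 or M2, where the log2 difference was 2.28 to 2.67 and the edgeR adjusted p 0.0606 to 0.116. It was also lost without WT-veh F3 and M3 (2.43, edgeR adjusted p = 0.0763). Without each of the 7 sublibraries in turn, *Ddx60* fell below the filter on low counts and was not tested. The same held under a stricter OPC rule and with only these groups in the fit. *Ddx60* had 6 transcripts in WT-veh, with 3 wells at 0, and 54 in Arc-veh. *Stat3*, a transcription factor activated by cytokines and named here after its values were seen, ran from 56.1 to 110 CPM in WT-veh (80.4) and from 75.5 to 263 CPM in Arc-veh (154), and rose by 1.17 ± 0.28 (edgeR adjusted p = 0.021) with some overlap. The *Stat3* call was lost without any one of WT-veh F2 or M1 or Arc-veh F2 or M1, without sublibrary 1 or 4, and without WT-veh F3 and M3.

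*Ddx60* is shown with its promoter. Of the called genes whose promoters were searched, it alone had a match to an interferon-stimulated response element, searched as GAAA, any 2 bases and GAAA again. RefSeq promoters (GRCm38.p6, 250 bases before to 50 after the start) were found for 18 of the 28 genes, 23 promoters in all, and both strands were searched. *C4b* and *Ermard* were not among the 18, so their promoters were not searched. The *Ddx60* promoter (chr8:61927837-61928136, plus strand) held the motif 2 times, 53 and 19 bases before the start, marked in capitals:

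Ddx60: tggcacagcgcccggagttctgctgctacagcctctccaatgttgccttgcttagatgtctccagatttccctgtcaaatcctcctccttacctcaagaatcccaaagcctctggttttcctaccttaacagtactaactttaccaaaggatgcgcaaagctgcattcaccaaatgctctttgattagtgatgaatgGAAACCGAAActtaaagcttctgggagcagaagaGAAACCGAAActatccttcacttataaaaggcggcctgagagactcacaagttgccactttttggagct

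The motif occurred in 1 of the 23 promoters and in 3.44% of all 32851 promoters, and 2 or more times in 0.225% of all. TTCNNNGAA, the core of a STAT binding site, occurred in 8.30% of all promoters and in 1 of the 23, that of *Tmem108*. A match describes the letters in these windows and does not show binding.

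Several of the larger rises were in genes that the other nuclei, most of them neurons, also carried. *Zfp804b*, a zinc finger gene, ran from 0 to 61.7 CPM in WT-veh OPCs (median 22.8) and from 121 to 496 CPM in Arc-veh (283), a rise of 3.62 ± 0.38 (log2, edgeR adjusted p = 4.7e-09). *Fstl4*, a secreted follistatin-like protein, rose from 48.1 to 152 CPM (81.8) to 242 to 445 CPM (345), by 2.08 ± 0.31 (edgeR adjusted p = 1.1e-05). *Sdk2*, a homophilic synaptic adhesion molecule, rose from 0 to 101 CPM (41.2) to 87.5 to 183 CPM (165), by 2.00 ± 0.38 (edgeR adjusted p = 0.0013). *Zfp804b* and *Fstl4* did not overlap between the groups, and *Sdk2* overlapped in 1 Arc-veh well. The secreted signal *Fam19a1* (1.30 ± 0.14), the cadherin *Cdh12* (1.45 ± 0.20), the neurexin *Nrxn3* (0.67 ± 0.10), the muscarinic receptor *Chrm3* (1.39 ± 0.30) and the growth cone protein *Gap43* (1.46 ± 0.31) also rose, and were named after their values were seen. The *Chrm3* call was lost without WT-veh F2 or Arc-veh F3, without sublibrary 1 or 3, and without WT-veh F3 and M3.

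Neuronal markers in OPC nuclei overlapped between all groups. The 12 markers summed to a median of 2344 CPM per well in WT-veh (2114 to 3078), 2669 in WT-PMX (2125 to 3753), 2906 in Arc-veh (1668 to 4006) and 2176 in Arc-PMX (1829 to 3137). Of the 7 that were tested none was called, with a median log2 change of 0.15 between the vehicle groups, where 6 of 7 were above 0, and of -0.32 between Arc-PMX and WT-PMX, where all 7 were below 0. Single markers ran from -0.24 to 1.86 between the vehicle groups, so not every neuronal marker was flat. Between Arc-PMX and WT-PMX they ran from -0.83 to -0.03. In nuclei that are neither OPC, oligodendrocyte nor astrocyte, most of them neurons, *Zfp804b* stood at a median of 282 CPM per well in WT-veh and 267 in Arc-veh, and *Fstl4* at 330 and 300 CPM (CPM without TMM scaling). The same genes stayed at 14.7 and 17.9 CPM (*Zfp804b*) and at 25.2 and 11.7 CPM (*Fstl4*) in oligodendrocyte nuclei of WT-veh and Arc-veh. For *Zfp804b* and *Fstl4* the medians rose in OPC nuclei, while those of the other nuclei of the same wells were slightly lower in Arc-veh. No setting left out the OPC nuclei with neuronal markers. Whether neuronal transcripts in OPC nuclei contribute to the rises of these or the other genes was not tested.

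*Adamts9* and *Cd9*, each a member of a gene list, also rose. *Adamts9*, a secreted protease that can cut versican, ran from 36.7 to 110 CPM in WT-veh (median 49.1) and from 238 to 372 CPM in Arc-veh (254), a rise of 1.97 ± 0.24 (log2, edgeR adjusted p = 3.2e-07) with no overlap. *Cd9*, a tetraspanin, ran from 42.4 to 117 CPM (75.5) in WT-veh and from 137 to 227 CPM (182) in Arc-veh, a rise of 1.14 ± 0.24 (edgeR adjusted p = 0.0033) with no overlap that did not pass without WT-veh F2 (0.92, edgeR adjusted p = 0.0917). The semaphorin *Sema3d* (0.83 ± 0.18), the collagen *Col16a1* (1.24 ± 0.30) and *Ndst3*, which modifies heparan sulfate (1.40 ± 0.32), rose too. These 3 and *Csgalnact1* were named after their values were seen. All 3 calls were lost without WT-veh F3 and M3. That of *Sema3d* was also lost without sublibrary 6. That of *Col16a1* was also lost without any one of WT-veh F1, F2 or M1 or Arc-veh F2, without sublibrary 4 or 5 and with other-type nuclei removed, and that of *Ndst3* without WT-veh F2 or M1 or Arc-veh F3. Other-type nuclei are those with 3 or more genes of the astrocyte, microglial, myelin, endothelial or mural and fibroblast list, and neuronal markers were not part of that removal. *Csgalnact1*, an enzyme that builds chondroitin sulfate chains, fell by 0.67 on the log2 scale (edgeR adjusted p = 0.030). The *Csgalnact1* call was lost without any one of WT-veh F1, F2 or M1 or Arc-veh F2, F3, M1 or M3, without any of sublibraries 1 to 5, with no filter on low counts, under the stricter OPC rule, with the replicate number as a block, with other-type nuclei removed, and without WT-veh F3 and M3.

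Non-coding genes rose as well. *Pvt1*, the neighbour of *Myc*, ran from 34.3 to 75.9 CPM in WT-veh (median 62.4) and from 136 to 302 CPM in Arc-veh (220), a rise of 1.97 ± 0.26 (log2, edgeR adjusted p = 1.2e-06). *Gm26673*, an antisense gene that overlaps the potassium channel gene *Kcna6* (chr6:126718684-126741601), ran from 0 to 63.6 CPM in WT-veh (9.55) and from 82.0 to 212 CPM in Arc-veh (141), a rise of 3.17 ± 0.46 (edgeR adjusted p = 6.9e-06). Neither overlapped between the groups. *AY036118* (chr17:39847113-39848035), a non-coding gene that overlaps an annotated ribosomal RNA, stood high in few wells. It ran from 350 to 12434 CPM in Arc-veh (median 432) against 211 to 389 CPM in WT-veh (303). Arc-veh M1 held 12434 CPM and F3 2928 CPM, and the other nuclei of those wells held 8844 and 2497 CPM (without TMM scaling), so that both wells were also high outside OPCs. Its rise of 3.09 ± 0.60 (edgeR adjusted p = 0.0015) became 1.44 (adjusted p = 0.0866) without M1.

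Of the 3 genes that fell, *Cacng4* and *Megf11* are OPC genes. *Cacng4*, an auxiliary subunit of AMPA-type glutamate receptors, ran from 1206 to 1999 CPM in WT-veh (median 1276) and from 601 to 954 CPM in Arc-veh (923), and fell by 0.69 (log2, SE 0.14, edgeR adjusted p = 0.0024) with no overlap. *Megf11*, a transmembrane protein with EGF-like repeats, ran from 1246 to 1923 CPM (1363) in WT-veh and from 739 to 1329 CPM (827) in Arc-veh, and fell by 0.66 (edgeR adjusted p = 0.0025). Both were highest in WT-veh F3. Without WT-veh F3 and M3 the difference was -0.57 for *Cacng4* (edgeR adjusted p = 0.0501) and -0.53 for *Megf11* (0.0675), neither past the threshold, and 18 genes were called in all, all of them higher. In WT-PMX, whose mice were treated, *Cacng4* ran from 908 to 1195 CPM (1066). Its median lay between those of the vehicle groups, and its wells overlapped those of Arc-veh. Every WT-PMX well lay below every WT-veh well, but no gene was called between these groups. There, 6 of 3144 genes (0.191%) had groups that did not overlap.

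**Figure D2:**
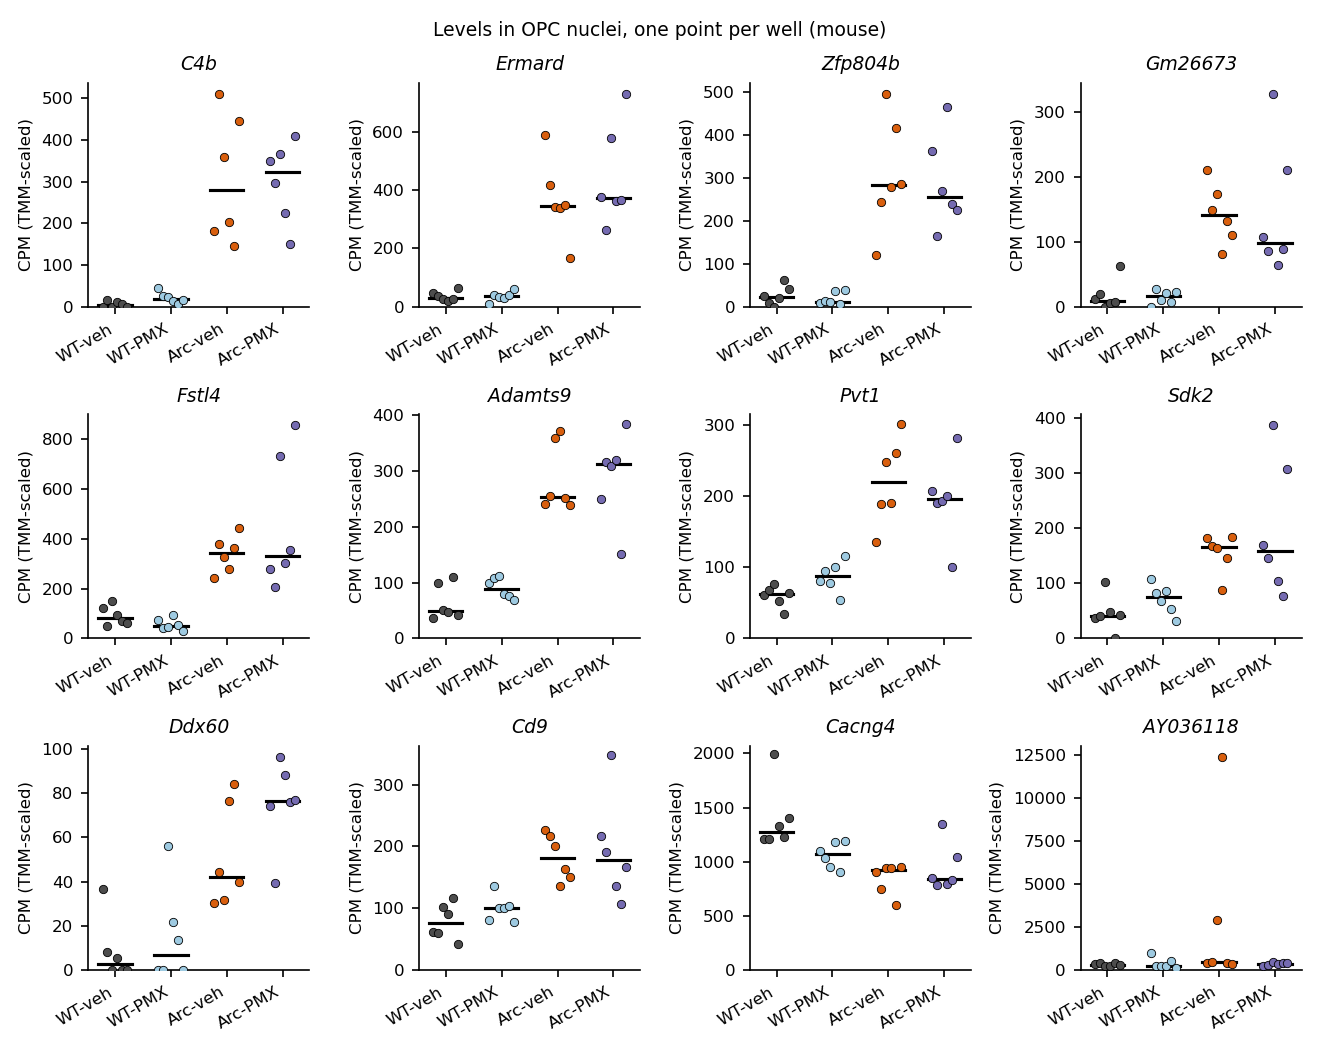
TMM-scaled CPM of 12 genes in OPC nuclei for each well, by group; lines are medians of 6 wells and each axis starts at 0. C4b, Ermard, Zfp804b, Gm26673, Fstl4, Adamts9 and Pvt1 are higher in every Arc-veh well than in every WT-veh well, Cacng4 is lower in every Arc-veh well, and AY036118 stands high in 2 Arc-veh wells, at 12434 and 2928 CPM.

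The treated mice gave a second comparison of the genotypes, with no well in common with the first, although both came from one fit; it was added after the first had been seen. Between Arc-PMX and WT-PMX, 25 genes rose (0.795%) and 5 fell (0.159%), 30 in all (0.954%), 271 (8.62%) passed at an unadjusted p under 0.05, and 23 genes (0.732%) had groups that did not overlap. The 30 became 14 with only the groups compared, 13 with other-type nuclei removed, 18 without sublibrary 7 and 64 with no filter on low counts. Of the 28 genes called between the vehicle groups, 19 were called again in the same direction. Another 8 had a fitted change of the same sign that did not pass, among them *Mctp1* (0.05 ± 0.25, edgeR adjusted p = 1.0), whose mean was 106 CPM in Arc-PMX and 111 in WT-PMX. *C4b* rose by 3.91 ± 0.37 (log2, edgeR adjusted p = 5.6e-10), *Ermard* by 3.54 ± 0.30 (3.8e-11), *Zfp804b* by 3.98 ± 0.40 (1.3e-09), *Gm26673* by 3.17 ± 0.46 (8.5e-06) and *Fstl4* by 2.92 ± 0.31 (8.0e-09). *Ddx60* rose by 2.32 ± 0.51 (edgeR adjusted p = 0.0097) and *Stat3* by 1.28 ± 0.29 (0.010). The genes that had fallen did not pass: *Cacng4* differed by -0.21 ± 0.14 (edgeR adjusted p = 0.80) and *Megf11* by -0.15 ± 0.13 (0.88). *AY036118* differed by -0.30 ± 0.63, the opposite sign.

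*Lhfpl3*, which the selection used, is among the 25 and is not read as a result. Genes called between the treated groups and not between the vehicle groups, named after their values were seen, included *Adamtsl3* (1.72 ± 0.32), *Col11a1*, a fibrillar collagen (1.11 ± 0.24), and *Nfasc*, a cell adhesion molecule of nodes and axons (0.87 ± 0.21), which rose, and *Lrfn5*, *Ednrb*, *Rasgrf1*, *Pogz* and *6030407O03Rik*, which fell. Between the vehicle groups *Nfasc* differed by 0.54 ± 0.22 (edgeR adjusted p = 0.40), and a difference between the arms was not called for any gene by the interaction test. *Nfasc* stood at 473 CPM in OPC and 2278 CPM in oligodendrocyte nuclei, and the myelin genes in OPC nuclei had their highest median sum in Arc-PMX (1174 CPM per well, against 584 in WT-PMX). Against WT-veh, *Nfasc* rose in Arc-PMX by 0.89 ± 0.22 (edgeR adjusted p = 0.027), and with other-type nuclei removed that difference was 0.60 (edgeR adjusted p = 0.490), no longer past the threshold. That call was also lost without WT-veh F3 and M3 (0.82, edgeR adjusted p = 0.131), and without sublibrary 2, 4 or 6. Leaving out any one of WT-veh F2, F3, M2 or M3 or Arc-PMX F1, M2 or M3 ended it too (edgeR adjusted p 0.0514 to 0.149). *Col11a1* was also called between Arc-PMX and WT-veh, and that call was lost in 17 of 24 fits with 1 well left out. The *Col11a1* call was lost as well with DESeq2 (0.90, adjusted p = 0.0545) and with doublets removed (0.89, edgeR adjusted p = 0.0540). Without WT-veh F3 and M3 it was lost too (0.78, edgeR adjusted p = 0.213). *Ednrb*, the endothelin B receptor, ran from 108 to 244 CPM in WT-PMX (148) and from 56.9 to 116 CPM in Arc-PMX (83.1). Between Arc-PMX and WT-veh, 29 genes rose (0.922%) and 5 fell (0.159%), 34 in all (1.08%), with 32 (1.02%) that did not overlap and 297 (9.45%) at an unadjusted p under 0.05. *Csmd1*, an inhibitor of complement, fell by 0.38 (log2, SE 0.09, edgeR adjusted p = 0.015) in that comparison, from 6630 to 9537 CPM (7450) to 4905 to 6840 CPM (5874). The *Csmd1* call was lost without any one of WT-veh F3 (-0.30, edgeR adjusted p = 0.0848), WT-veh M3, Arc-PMX F3 or Arc-PMX M3, with no filter on low counts (-0.28, 0.406), with other-type nuclei removed (-0.29, 0.164), and without WT-veh F3 and M3 (-0.27, 0.270). Between the vehicle groups it differed by -0.22 ± 0.09 (edgeR adjusted p = 0.39). *C4b*, *Ermard*, *Zfp804b*, *Fstl4* and 14 other genes were called in all 3 genotype comparisons, which share wells.

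**Figure D3:**
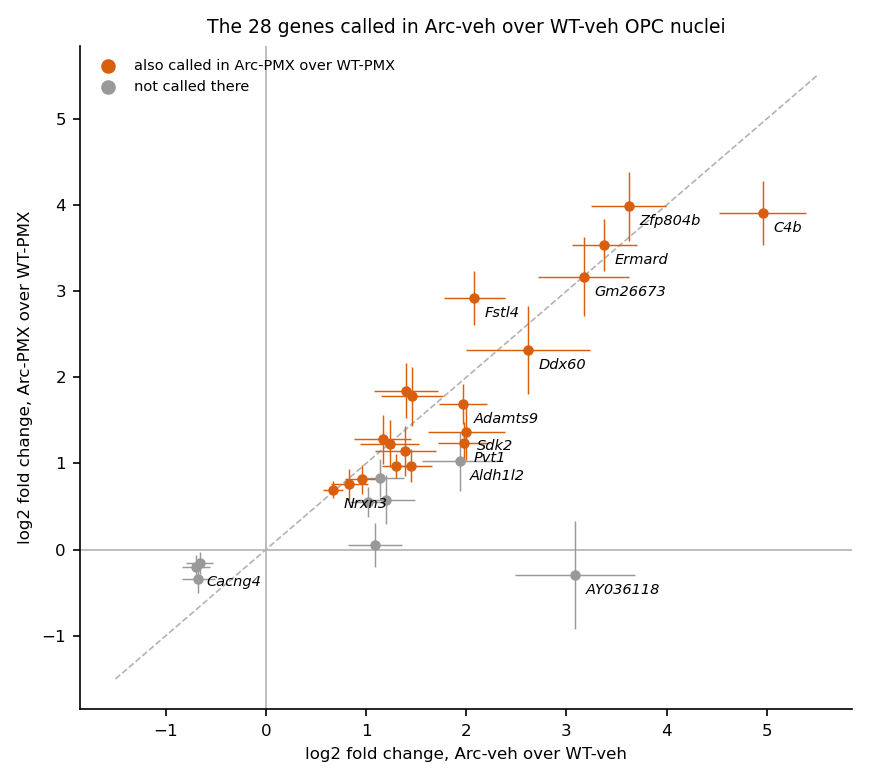
Log2 fold change (± SE) of the 28 genes called between Arc-veh and WT-veh OPC nuclei (horizontal axis) against that between Arc-PMX and WT-PMX (vertical axis), which used no well in common. Orange marks the 19 genes called in both, grey the other 9; the dashed line marks equal values. Apart from AY036118 (3.09 and -0.30), the points lie on the same side of 0 on both axes.

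Few OPC genes differed with PMX205 at this depth. Between Arc-PMX and Arc-veh no gene rose and 1 of 3144 fell (0.0318%), *AY036118*, by 3.03 (log2, SE 0.57, edgeR adjusted p = 0.015). That call was lost without Arc-veh M1 (-1.31, edgeR adjusted p = 0.751), without Arc-veh F3 (-2.90, 0.0731) and without any one of Arc-PMX F1, F2, M1, M2 and M3 (-3.05 to -2.96, 0.0519 to 0.0677), and DESeq2 called no gene. It was also lost with the replicate number as a block (-2.23, edgeR adjusted p = 0.477) and with only the groups compared (-2.93, 0.192). At an unadjusted p under 0.05, 120 genes passed (3.82%), and 4 genes (0.127%) did not overlap. *C4b* differed by -0.05 ± 0.23, *Ermard* by 0.29 ± 0.21, *Zfp804b* by -0.15 ± 0.23, *Adamts9* by -0.04 ± 0.19 and *Stat3* by -0.08 ± 0.24. The Arc-PMX and Arc-veh wells overlapped for each of these genes.

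In WT mice edgeR called no gene between WT-PMX and WT-veh (0 of 3144, 0%), DESeq2 called none, and 141 genes (4.48%) passed at an unadjusted p under 0.05. *C4b* differed by 1.0 ± 0.75 (adjusted p = 0.99). *Gpr17*, a receptor of committed precursors, ran from 46.3 to 267 CPM in WT-PMX (197) and from 50.6 to 132 CPM in WT-veh (74.4), a difference of 0.89 ± 0.35 (edgeR adjusted p = 0.99). The test of whether treatment acted differently in the 2 genotypes called no gene by edgeR (0 of 3144, 0%) or DESeq2, and 132 genes (4.2%) passed at an unadjusted p under 0.05.

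The share of OPC nuclei with a *C4b* transcript followed the level. After each nucleus was thinned to 1000 transcripts, which left out shallower nuclei (40 in WT-veh, 23 in WT-PMX, 9 in Arc-veh and 9 in Arc-PMX), *C4b* was detected in 0 to 1.59% of nuclei per well in the WT-veh group, with a median of 0, in 0 to 8.33% in WT-PMX (3.47), 8.33 to 34.0% in Arc-veh (24.3) and 19.7 to 34.7% in Arc-PMX (25.5). No Arc-veh or Arc-PMX well fell within the WT-veh range. The mean share was 22.5 percentage points higher in Arc-veh than in WT-veh (exact permutation test, two-sided, adjusted p = 0.00433) and 25.9 points higher in Arc-PMX than in WT-veh (adjusted p = 0.00433), and it differed by 3.37 points between Arc-PMX and Arc-veh (p = 0.513). Without WT-veh F3 and M3 the differences from WT-veh were 22.2 and 25.6 points (adjusted p = 0.0190 in each). Without thinning, *C4b* was detected in 2.01% of WT-veh and 4.95% of WT-PMX nuclei, and in 43.8% of Arc-veh and 44.4% of Arc-PMX nuclei.

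A small difference lay between the WT groups, where the share was 3.17 points higher in WT-PMX (exact permutation test, p = 0.0195, adjusted p = 0.0260). It rested on few transcripts, 7 in WT-veh and 15 in WT-PMX before thinning. With other-type nuclei removed, which left in those with neuronal markers, it was 2.83 points (adjusted p = 0.115), and without WT-veh F3 and M3 2.92 points (adjusted p = 0.0825), neither past the threshold. The nuclei that are neither OPC, oligodendrocyte nor astrocyte, which are mostly neurons but include every nucleus that failed those rules, had thinned shares of 0.961% in WT-veh, 1.18% in WT-PMX, 4.72% in Arc-veh and 4.61% in Arc-PMX, at median depths before thinning of 6332, 6945, 8929 and 8166 transcripts. The mean OPC share per well was 0.487% in WT-veh, below the share of these other nuclei, although wells M1 (1.33%) and M2 (1.59%), each with 1 thinned *C4b* nucleus, lay above it. The means of 3.65% in WT-PMX, 22.97% in Arc-veh and 26.3% in Arc-PMX were above the shares of the other nuclei in their own groups. The shares of the other nuclei were pooled over nuclei, while the OPC values are means of wells. They do not measure how much *C4b* carries over into OPC nuclei, which was not tested.

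**Figure D4:**
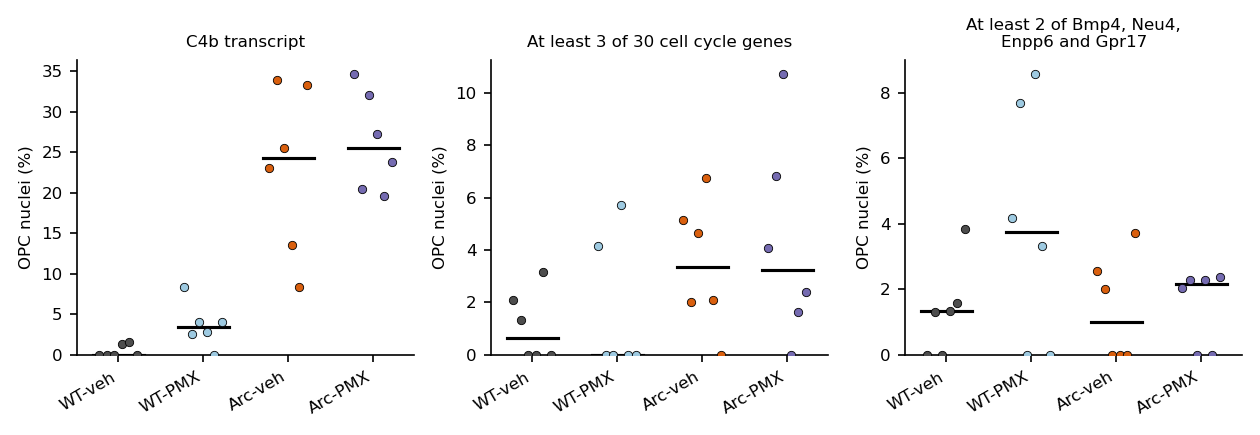
Percentage of OPC nuclei per well, after thinning to 1000 transcripts, with a C4b transcript (left), with at least 3 of 30 cell cycle genes (middle) and with at least 2 of Bmp4, Neu4, Enpp6 and Gpr17 (right). Points are wells, lines are medians of 6 wells; the C4b share is higher in every Arc-veh well than in every WT-veh well, and the other shares overlap between all groups.

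Oligodendrocytes and astrocytes of the same wells gave a scale for the *C4b* change. Without TMM scaling, *C4b* ran from a median of 3.44 CPM per well in WT-veh to 277 in Arc-veh in OPCs, from 47.1 to 1015 in oligodendrocytes, from 188 to 741 in astrocytes and from 4.33 to 29.1 in all other nuclei. In log2 CPM with a prior count of 2, the mean change per well was 3.97 in OPCs, 4.64 in oligodendrocytes and 2.24 in astrocytes. The change in OPCs was larger than in astrocytes by 1.73 (exact permutation test over wells of the within-well difference, adjusted p = 0.00433), and differed from that in oligodendrocytes by -0.667 (p = 0.327). OPCs thus began near 0 in WT-veh, where astrocytes already carried the transcript, and remained below both other glia in Arc-veh.

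The same fit was run on the other glia, added after the OPC calls were seen. In oligodendrocytes, where 155 of 4727 genes (3.28%) were called between Arc-veh and WT-veh, 14 of the 28 could be tested and 8 were called in the same direction: *C4b*, *Ermard*, *Stat3*, *Pvt1*, *Aldh1l2*, *Col16a1*, *Fmn1* and *AY036118*. In astrocytes, where 629 of 6152 (10.2%) were called, 19 could be tested and 11 were called in the same direction, *C4b*, *Ermard*, *Stat3*, *Ddx60*, *Cd9* and *Pvt1* among them. *Ermard* rose by 1.55 ± 0.26 in oligodendrocytes and 1.18 ± 0.25 in astrocytes, against 3.38 ± 0.33 in OPCs, and *Stat3* by 1.42 ± 0.24 and 1.36 ± 0.20, against 1.17 ± 0.28. In each of these cell types 2 of the 28 were called in the opposite direction between the vehicle groups. *Zfp804b* fell by 1.72 (edgeR adjusted p = 0.0096) and *Cdh12* by 0.96 (0.024) in astrocytes, and *Nrxn3* fell by 0.85 (0.0090) and *Mctp1* by 1.32 (0.025) in oligodendrocytes. Between Arc-PMX and WT-PMX, *Zfp804b* and *Cdh12* were again called lower in astrocytes, while none of the 28 was called in the opposite direction in oligodendrocytes, where *Nrxn3* differed by -0.38 ± 0.19 (edgeR adjusted p = 0.54) and *Mctp1* by 0.12 ± 0.30 (0.98). *Adamts9* differed by -0.08 ± 0.18 in astrocytes (edgeR adjusted p = 0.90). The difference between cell types was tested for *C4b* alone.

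**Figure D5:**
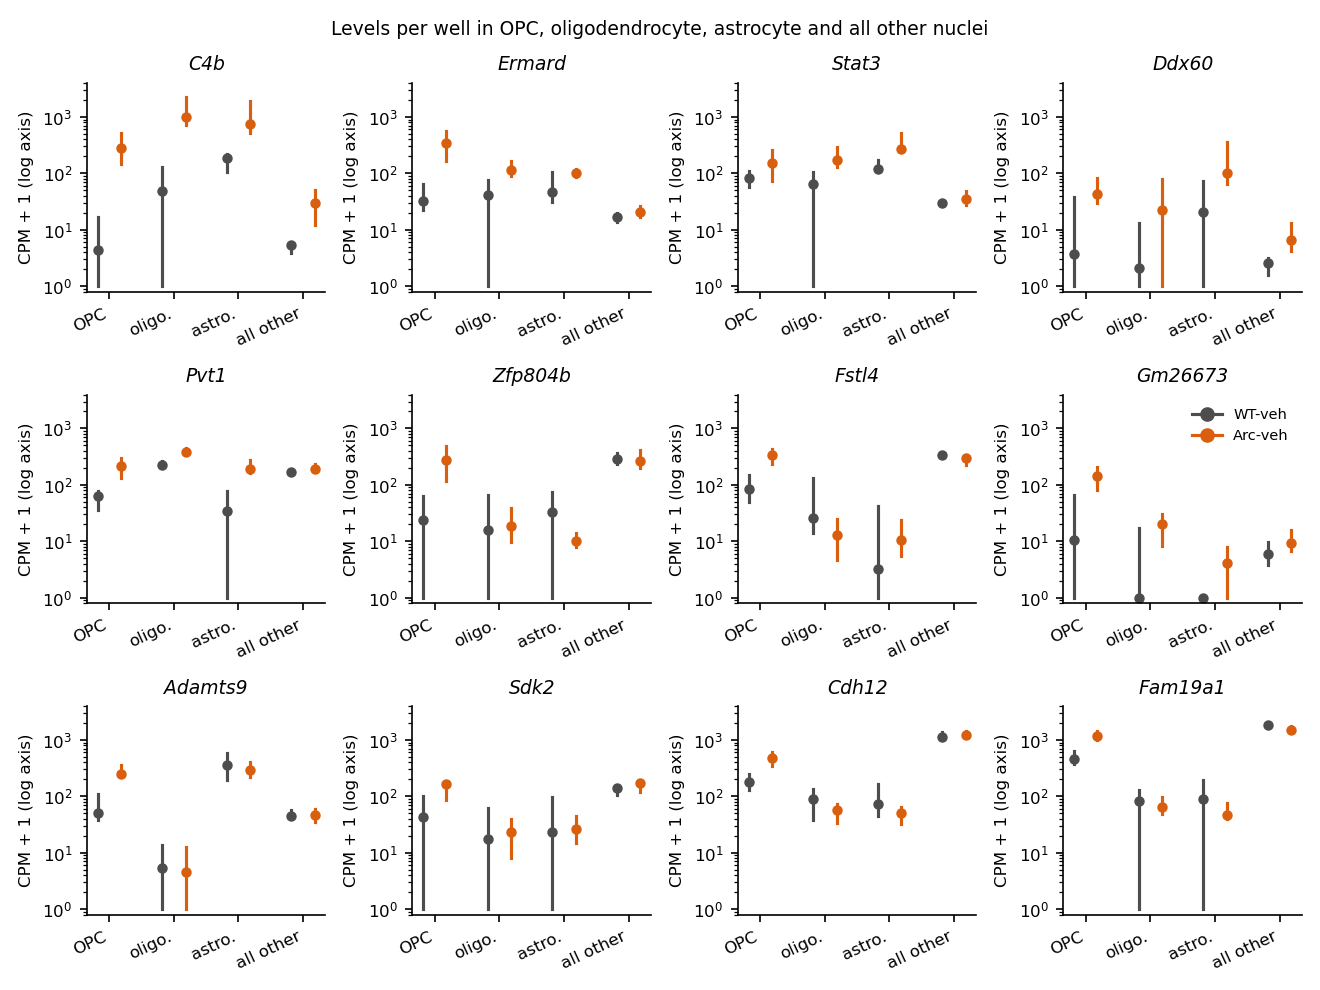
CPM + 1 (log axis, no TMM scaling) of 12 genes in WT-veh and Arc-veh wells, for OPC, oligodendrocyte, astrocyte and all other nuclei. Points are medians and bars run from the lowest to the highest of 6 wells; C4b and Stat3 are higher in Arc-veh in all 3 glia, while Zfp804b and Fstl4 have higher medians in Arc-veh OPCs and lower ones in all other nuclei.

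Markers of other cell types were summed in the OPC nuclei of each well. The 10 astrocyte markers summed to a median of 5797 CPM per well in WT-veh (5499 to 6595) and 5379 in Arc-veh (4474 to 6194), most of it *Gpc5*, which OPCs share. The 16 myelin genes summed to 729 CPM in WT-veh (389.98 to 1067), 584 in WT-PMX (266 to 1312), 831 in Arc-veh (227 to 1998) and 1174 in Arc-PMX (267 to 2301), and the 12 microglial markers to 142 CPM in WT-veh (24.7 to 276), 130 in WT-PMX and in Arc-veh, and 420 in Arc-PMX (129 to 832). The endothelial markers had medians of 20.4, 20.9, 30.3 and 32.8 CPM and the mural and fibroblast markers of 4.02, 17.5, 47.7 and 24.96 CPM, each in the order WT-veh, WT-PMX, then Arc-veh, Arc-PMX. The microglial median was thus highest in Arc-PMX and the mural and fibroblast median highest in Arc-veh. Of these lists 3 astrocyte, 5 myelin and 2 microglial genes were abundant enough to test and none was called between Arc-veh and WT-veh. With nuclei that carried 3 or more genes of any one of these 5 lists removed, 807 OPC nuclei remained, 25 genes were called between Arc-veh and WT-veh, 18 of them among the 28, and *C4b* stood at 8.27 CPM in WT-veh and 22.1 in WT-PMX, and at 293 CPM in Arc-veh and 263 in Arc-PMX over all remaining nuclei. *Aldh1l2*, *Cacng4*, *Cdh12*, *Col16a1*, *Csgalnact1*, *Ddx60*, *Mctp1*, *Megf11*, *Pld5* and *Stat3* were no longer called. Of these, *Ddx60* was below the filter on low counts in this setting and was not tested. This removal also took out deeper nuclei: the median was 2029 transcripts in those left and 2459.5 in all OPC nuclei. It kept 254 of 348 nuclei in WT-veh, 202 of 303 in WT-PMX, 175 of 290 in Arc-veh and 176 of 277 in Arc-PMX. The astrocyte list holds *Gpc5*, detected in 98.4% of OPC nuclei. Whether other-type transcripts contribute to the remaining differences, or fewer counts to the other lost calls, was not tested.

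The gene lists are read against all 3144 genes, of which 28 (0.891%) were called between Arc-veh and WT-veh, 1625 had a fitted change above 0 and the median log2 change was 0.01. Of 24 complement genes and regulators 4 were tested, and *C4b* alone was called (median 0.07). Of 20 genes known from disease-associated oligodendrocyte lineage cells 3 were tested and *C4b* and *Cd9* rose (median 1.14). Between Arc-PMX and WT-PMX *C4b* alone of these 3 was called (median 0.83), and *Cd9* did not pass. *C4b* stands in both of these lists. It had at most 4 transcripts in a WT-veh well and 5 in a WT-PMX well, so it passed the filter only through the Arc wells. Its counts in these lists are a description and not a result about the lists. Of 40 growth factor receptors and differentiation signals 21 were tested and none was called (median -0.02): *Fgfr2*, a receptor of fibroblast growth factors, differed by -0.02 ± 0.12, and *Fgfr1* was below the filter. Of 40 glutamate receptor and ion channel genes 35 were tested and *Cacng4* alone was called, with a median of 0.05; the AMPA receptor subunit *Gria4* differed by 0.03 ± 0.14. Of 31 matrix and proteoglycan genes 20 were tested and *Adamts9* alone was called (median -0.11).

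Among 14 further OPC and lineage markers 12 were tested, *Megf11* and *Cacng4* fell, and none of the 12 had a fitted change above 0 (median -0.17), against 1625 of all 3144 genes above 0 and 0.0954% called lower. Both calls were lost without WT-veh F3 and M3, as given above. The same list had a median of -0.17 between WT-PMX and WT-veh with no gene called, and of -0.08 between Arc-PMX and WT-PMX, also with none called. Between Arc-PMX and WT-veh the median was -0.23, 1 of the 12 was above 0, and *Cacng4* and *Dscam* fell, against 0.159% of all genes called lower. *Dscam*, a cell adhesion molecule, ran from 5666 to 7286 CPM in WT-veh (6531) and from 4956 to 5668 CPM in Arc-PMX (5392), and fell by 0.28 (log2, SE 0.07, edgeR adjusted p = 0.040). Without WT-veh F3 and M3 neither passed, at -0.23 for *Dscam* (edgeR adjusted p = 0.299) and -0.44 for *Cacng4* (0.25). With other-type nuclei removed neither passed either (-0.18, 0.631 and -0.48, 0.201). The call of *Dscam* was also lost without any one of 9 wells (-0.29 to -0.24, edgeR adjusted p 0.0521 to 0.136), and *Cacng4* without any one of 7 wells (-0.57 to -0.45, 0.0515 to 0.131). Both were lost with no filter on low counts (edgeR adjusted p = 0.824 for *Dscam*, 0.131 for *Cacng4*) and under the stricter OPC rule (0.126 and 0.105). *Dscam* was also lost with only the groups compared (0.119) and without any of sublibraries 1 to 4, and *Cacng4* without sublibrary 1 or 4. *Sox10* differed by -0.24 ± 0.23, *Olig2* by -0.09 ± 0.40 and *Ptprz1* by -0.09 ± 0.10 between Arc-veh and WT-veh. Among the genes of the rule, *Pdgfra* ran from 785 to 1037 CPM in WT-veh (840), 828 to 925 in WT-PMX (863), 618 to 1017 in Arc-veh (734) and 770 to 1038 in Arc-PMX (787). *Lhfpl3* ran from 9729 to 14142 CPM in WT-veh and from 11330 to 16146 CPM in Arc-veh. These genes were part of the selection, so no test of them is read, although they stood in the table that was fitted.

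Of 17 genes of APP processing and Alzheimer risk 8 were tested and none was called (median 0.16). *App* itself ran from 202 to 343 CPM in WT-veh (286) and from 273 to 681 CPM in Arc-veh (361), a difference of 0.50 ± 0.19 (log2, edgeR adjusted p = 0.37), and *Apoe* was below the filter with 33 transcripts in WT-veh, 39 in WT-PMX, 55 in Arc-veh and 32 in Arc-PMX. Of 16 mature oligodendrocyte and myelin genes 5 were tested, all with a fitted change above 0 and none called (median 0.40), and the median was 0.83 between Arc-PMX and WT-PMX, also with none called. Of 14 committed precursor genes 9 were tested and none was called (median -0.04). None of 15 senescence and growth arrest genes was abundant enough to test; *Cdkn1a*, an inhibitor of cell division, had 1 transcript in all 1218 nuclei. Of the interferon, stress, cholesterol and cell cycle lists 1 of 32, 2 of 20, 3 of 21 and 1 of 30 genes were tested, and none was called.

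A few OPC nuclei carried many cell cycle genes. In 18 of 1218 nuclei (1.48%), from 12 wells, at least 10 of 30 cell cycle genes were detected. All 18 carried *Mki67*, a marker of dividing cells, and *Pdgfra*, and 94.4% carried *Top2a*, which untangles DNA in division. These genes took part in choosing the nuclei, so the shares are a description. The 18 nuclei were spread as 3 in WT-veh, 3 in WT-PMX, 6 in Arc-veh and 6 in Arc-PMX. Of committed precursor genes, which did not choose them, *Neu4* was detected in 33.3% and *Gpr17* in 27.8% of the 18, against 25.7 and 25.2% of the 1155 nuclei with fewer than 3 cycle genes, at unequal depth.

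With nuclei thinned to 1000 transcripts, 29 of 1137 OPC nuclei (2.55%) had at least 3 cycle genes, against 3 of 2312 oligodendrocyte nuclei (0.130%) and 1 of 2870 astrocyte nuclei (0.0348%) thinned the same way, from median depths of 1648 and 2465 transcripts. The share per well ran from 0 to 3.17% in the WT-veh group, with a median of 0.658%, 0 to 5.71% in WT-PMX (0), 0 to 6.76% in Arc-veh (3.37) and 0 to 10.7% in Arc-PMX (3.23). All groups overlapped. The mean was 2.34 points higher in Arc-veh than in WT-veh (exact permutation test, p = 0.0866, adjusted p = 0.173) and 3.18 points higher in Arc-PMX than in WT-veh (p = 0.0823, adjusted p = 0.173), which did not pass. These differences were 1.79 and 2.63 points without WT-veh F3 and M3 (adjusted p = 0.514 in each). Without thinning the latter difference was 6.49 points (adjusted p = 0.0433), with deeper nuclei in Arc-PMX.

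The share of nuclei with committed precursor genes overlapped between the groups. At least 3 of the 14 committed precursor genes were detected in 54.4% of thinned OPC nuclei, so this measure is a range across the population and not a class. It ran from 44.4 to 65.0% per well in WT-veh, 38.8 to 68.6% in WT-PMX, 33.3 to 68.0% in Arc-veh and 46.4 to 68.2% in Arc-PMX, with differences of -4.11 to 0.617 points in 4 comparisons (exact permutation test, adjusted p = 0.935 in each). With WT-veh F3 and M3 left out, the differences from WT-veh were -0.921, -0.304 and 2.39 points for Arc-veh, Arc-PMX and WT-PMX (adjusted p = 0.948 in each). A narrower set of 119 nuclei (9.77%), defined after the data were seen by at least 2 of *Bmp4*, *Neu4*, *Enpp6* and *Gpr17*, held 24 WT-veh and 39 WT-PMX nuclei, and 23 Arc-veh and 33 Arc-PMX nuclei. As a share of thinned nuclei per well, this set differed from WT-veh by 0.0309 points in Arc-veh, 0.147 in Arc-PMX (exact permutation test, adjusted p = 1.0 in both) and 2.61 in WT-PMX (adjusted p = 0.580).

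Sex was compared over all groups. *Xist*, the non-coding RNA of the inactive X chromosome, was higher in females (1 gene, 0.0318%), and the Y-linked genes *Uty* and *Eif2s3y* were lower (2 genes, 0.0636%), and these 3 (0.0954%) were the only genes called of 3144. At an unadjusted p under 0.05, 217 genes passed (6.9%).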

How the data were processed

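Nuclei of 24 hippocampi were barcoded by split-pool ligation and sequenced as 7 sublibraries. Per the labels and methods, the authors demultiplexed with bcl2fastq, aligned to mm10 and counted with the split-pipe pipeline, and they deposited transcript counts (unique molecules) per gene and nucleus with a table of nuclei. Counts were used as deposited, and the group, sex and number of each well came from the authors' sample sheet. Nuclei with 301 to 49999 transcripts, more than 400 genes and under 1% mitochondrial transcripts were kept. The study excluded 1 sample of the WT group because its expression was that of Arc mice. It is not named in the sources used here, so all 24 wells were kept. Gene positions came from GENCODE for GRCm38.

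OPC counts were summed per well (at least 10 OPC nuclei each) and tested with edgeR 4.0.16 (TMM, filterByExpr, quasi-likelihood, group plus sex, all 4 groups in one fit), with Benjamini-Hochberg adjustment and a threshold of 0.05. DESeq2 1.42.0 was an alternative. The SE is the absolute log2 fold change divided by the square root of F. Oligodendrocyte and astrocyte nuclei were chosen by the same kind of rule on 5 markers each. Shares were compared by exact permutation over wells (scipy 1.17.1), after thinning each nucleus to 1000 transcripts where stated. A Scrublet score above 0.25 (scanpy 1.11.5) marked 1253 nuclei (2.78%), 19 of them OPCs, as doublets, which were removed only in an alternative. Named genes were those called where 10 or fewer were, otherwise the 10 with the largest change among called genes with the same sign in both sexes, called genes of the lists, and a fixed set (C4b, Serpina3n, B2m, H2-D1, Cdkn1a, Apoe, App, Csmd1, Csmd2, Gpr17, Bmp4, Mki67, Sox10, Olig2, Ptprz1, Fgfr1, Fgfr2, Gria4). The members, lists and comparisons were chosen with earlier results of these data known. Each well is 1 mouse. Counting intervals are not given, since the spread between wells was used.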

Additional observations from a re-analysis of the deposited data

Results flagged for a closer look

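Of 132 sets of 6 wells that were checked, 9 held a well far from the other 5, and chance gives about 1 in 20. The highest well stood apart for *Gm26673* in WT-veh (M3, 63.6 CPM, next 20.0), *AY036118* in Arc-veh (M1, 12434 CPM, next 2928), *Ddx60* in WT-veh (F1, 36.7 CPM, next 8.01), *Cacng4* in WT-veh (F3, 1999 CPM, next 1400), *App* in Arc-veh (F3, 681 CPM, next 405), *Sox10* in Arc-veh (M3, 405 CPM, next 294) and *Ptprz1* in WT-PMX (M3, 3338 CPM, next 2820). The lowest well stood apart for *Fgfr2* in WT-veh (M1, 575 CPM, next 632). The share of OPCs among OPC and oligodendrocyte nuclei was 32.6% in Arc-PMX M2, with the next well at 23.03%. The *C4b* difference of the vehicle groups was larger in OPCs than in astrocytes by 1.73 on the log2 scale (exact permutation test over wells, adjusted p = 0.00433). With a smaller prior count it was larger by 3.05, so its size depends on that setting. The causes were not tested.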

How the results depend on the processing

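No value that passed its test changed direction under any setting run, while 50 values changed sign with neither value past the threshold. For single named genes 1554 values kept direction and call and 103 lost the call. *C4b* between Arc-veh and WT-veh passed under every one. Of the 28 genes called between Arc-veh and WT-veh, 27 were shared with DESeq2 (28 called). Without a filter on low counts, 48 genes were called between Arc-veh and WT-veh, 8 between Arc-PMX and Arc-veh, 68 between Arc-PMX and WT-veh, 6 between WT-PMX and WT-veh, 5 for the interaction, 16 between females and males and 64 between Arc-PMX and WT-PMX. Without WT-veh F3 and M3, a setting chosen after seeing the data, the counts were 18 for Arc-veh minus WT-veh, 20 for Arc-PMX minus WT-veh and 5 for sex. With other-type nuclei removed they were 17 for Arc-PMX minus WT-veh, 13 for Arc-PMX minus WT-PMX and 1 for sex. With only the groups compared they were 0 for Arc-PMX minus Arc-veh and 14 for Arc-PMX minus WT-PMX. Without sublibrary 3, 2 genes were called between Arc-PMX and Arc-veh, and without sublibrary 7, 18 between Arc-PMX and WT-PMX. DESeq2 called 0 between Arc-PMX and Arc-veh. Leaving out 1 well at a time gave 19 to 31 genes for Arc-veh minus WT-veh (19 without WT-veh F2), 0 to 1 for Arc-PMX minus Arc-veh, 22 to 37 for Arc-PMX minus WT-veh, 3 to 6 for sex and 21 to 33 for Arc-PMX minus WT-PMX.

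Deviations of wells with the same number had a median correlation of 0.0428 over 36 pairs (lowest -0.0644), against -0.0110 over 180 pairs with other numbers, so that not every pair was above 0.1 and the numbers were not taken as pairs. Of 24 wells 8 correlated best with a well of their own number, which 3 of the 18 wells of other groups carry. With the replicate number as a block, 28 genes were called between Arc-veh and WT-veh (27 shared, without *Csgalnact1*) and 0 between Arc-PMX and Arc-veh.

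Against oligodendrocytes the OPC share differed by -20.4 points (Arc-veh minus WT-veh) and -18.5 points (Arc-PMX minus WT-veh), and the former by -8.02 without WT-veh F3 and M3. The cycle share in Arc-PMX minus WT-veh was 6.49 points without thinning, and the *C4b* share in WT-PMX minus WT-veh 2.83 points with other-type nuclei removed and 2.92 without WT-veh F3 and M3. The causes were not tested. Wells with 27 to 77 OPC nuclei limit tests to 3144 of 19554 genes with counts.

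The values that changed sign, none past the threshold, were these. Under the stricter rule the OPC share differed by 0.00734 points between the vehicle groups, by 0.0186 in Arc-PMX minus Arc-veh and by 0.0259 in Arc-PMX minus WT-veh. It was, for Arc-PMX minus Arc-veh 0.0256 with doublets removed, 1.83 against oligodendrocytes with or without WT-veh F3 and M3, and -0.179 to 0.108 with 1 well left out. The committed share in Arc-veh minus WT-veh was 3.27 with at least 4 genes, 14.6 without thinning and 0.0309 with the narrower set. In Arc-PMX minus Arc-veh it was -5.65 with at least 4 genes, -1.60 without thinning and -3.27 to 3.66 with 1 well left out. In Arc-PMX minus WT-veh it was 13.04 without thinning and 0.147 with the narrower set. In WT-PMX minus WT-veh it was 2.01 with at least 4 genes, 8.20 without thinning, 2.61 with the narrower set, 2.39 without WT-veh F3 and M3 and -3.30 to 2.66 with 1 well left out. With 1 well left out the cycle share was -0.262 to 0.967 (WT-PMX minus WT-veh) and -0.453 to 1.69 (Arc-PMX minus Arc-veh). The *C4b* share in Arc-PMX minus Arc-veh was -2.01 without thinning and -1.16 with other-type nuclei removed, and the *C4b* change in OPCs against oligodendrocytes 0.150 with a prior count of 0.5. In log2 change between Arc-veh and WT-veh, *Gpr17* was -0.128 to 0.386, *Olig2* -0.200 to 0.185, *Fgfr2* -0.0904 to 0.0409 and *Gria4* -0.0291 to 0.0978 with 1 well left out. *Olig2* was 0.0316 with DESeq2. *Fgfr2* was 0.0245 with no filter, 0.0115 under the stricter rule and 0.0533, 0.0232 and 0.0208 without sublibrary 3, 4 and 7. *Gria4* was -0.0287 and -0.000705 without sublibrary 6 and 7 and -0.0333 without WT-veh F3 and M3.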

Other observations

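*H2-D1*, a major histocompatibility gene, had 2 transcripts in WT-veh OPC nuclei, 8 in WT-PMX, 6 in Arc-veh and 9 in Arc-PMX. *Csmd2* differed by 0.14 ± 0.11 on the log2 scale between Arc-veh and WT-veh (edgeR adjusted p = 0.79). The C5a receptor gene *C5ar1* was at 0 in all 1218 OPC nuclei.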
